A study of Marmota monax with 20 samples.

Results

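Liver and spleen of the same woodchucks were compared by RNA-seq in 11 of the 20 libraries of the series, which were chosen by the tissue given in their labels. All 6 liver libraries (animals F6849, F9150, F6852, M4046, M4075 and M4091) and all 5 spleen libraries (the same animals without F6852) were taken, so that 5 animals gave both tissues and liver F6852 had no partner. All animals were adult, untreated Eastern woodchucks (*Marmota monax*) that were negative for woodchuck hepatitis virus. The letter of the animal name was read as female (F) or male (M), since no label states the sex, which gave 2 female and 3 male pairs. Each animal counts as a replicate, and neither group was treated or altered. The measured values are reads counted on 30973 genes of the Monax4B annotation, without normalization.

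Liver is made up largely of hepatocytes, which carry out intermediary metabolism and detoxification and secrete most of the proteins of blood plasma. Spleen filters the blood, removes aged red cells in its red pulp and holds B and T lymphocytes in its white pulp. Both organs also contain macrophages, endothelium and blood. Genes are listed by identifier alone, and 0 of the 30973 identifiers were found in the RefSeq gene table for this species. The defining markers of hepatocytes, lymphocytes and macrophages were therefore not looked up, the tissue labels were not checked against them, and genes are described by their read levels. At most 2 genes in each direction are given by identifier. In whole-tissue RNA, fewer cells of a type and less RNA per cell cannot be told apart.

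Total counts ran from 82874390 to 140252555 in liver (median 92574920.5) and from 59487004 to 123267969 in spleen (median 67281605). Trimmed mean (TMM) scaling, which sets the bulk of genes level between libraries, gave factors of 0.605 to 0.643 in liver and 1.64 to 1.84 in spleen. The effective library sizes were thus 50180085 to 86368058 in liver and 108307500 to 202175110 in spleen, so that a gene at the same level received more counts in spleen. Levels are given below as CPM, counts scaled by the effective library size. They are not per length of the gene, so that a level can be compared between tissues for a gene but is no measure of transcripts between genes. No animal had its liver and spleen in the same sequencing lane.

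Most genes differed between the tissues, in near balance of direction. With the animal as a block, 13771 of the 19285 genes tested passed a false discovery rate of 0.05 (71.4%, edgeR's quasi-likelihood test). Of these, 6480 genes (33.6% of those tested) were higher in liver and 7291 (37.8%) were higher in spleen. A change of more than 2-fold was found for 8166 genes (42.3%), 3803 (19.7%) higher in liver and 4363 (22.6%) higher in spleen. The tested genes held 99.97% of the counts of the 10 paired libraries. The remaining 11688 genes were too low for the test, and 5371 of them had 0 counts in all 11 libraries. Among liver and spleen libraries that shared a lane, with the lane as a block, 12600 genes differed, 46.3% of them higher in liver against 47.1% in the paired fit. With library sizes alone in place of the TMM factors, 15.0% of 16687 calls were higher in liver, and the median log2 difference over all tested genes moved from -0.12 to -1.66. The directions below are relative to the bulk of genes.

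**Figure D1:**
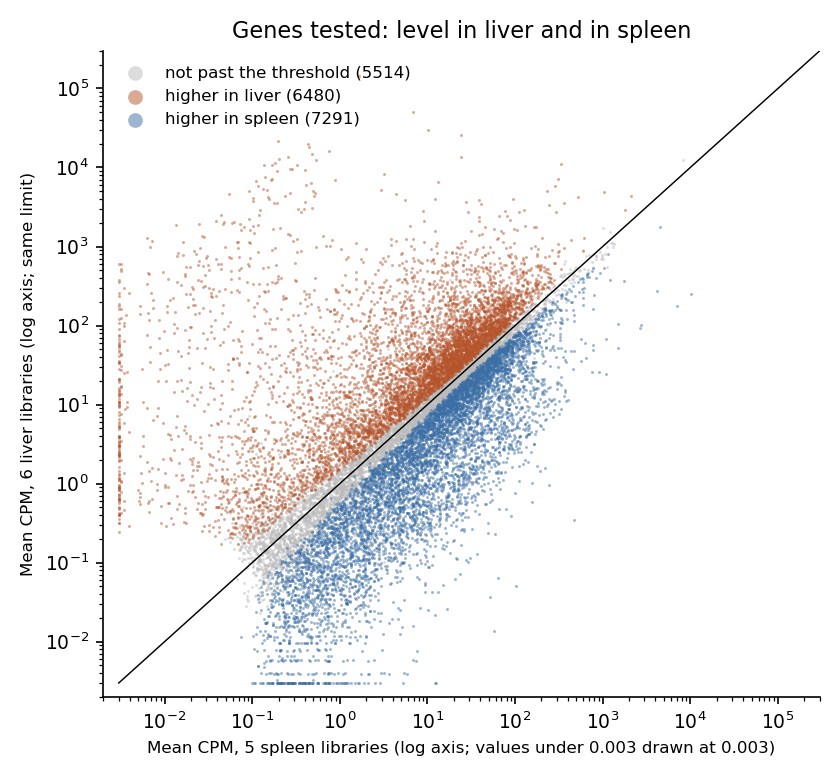
Mean level of each of the 19285 genes tested, in CPM on log axes, in the 6 livers (vertical) and the 5 spleens (horizontal), with the line of equal levels. Some of the 6480 genes higher in liver reach far above the line, with a column of genes at the left edge that had almost no reads in spleen. Most genes of either direction lie within 2 powers of 10 of the line. A fitted fold of at least 100 was found for 10.4% of the genes higher in liver and 3.02% of the 7291 genes higher in spleen.

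The sizes of the differences were alike for the typical gene and unlike for the extremes. The median fold was 3.14 among genes higher in liver and 3.84 among genes higher in spleen, and a fitted fold under 2 was found for 26.7% and 24.1% of them. The upper tail was longer in liver. The 90th percentile of the log2 fold change was 6.89 for genes higher in liver and 4.88 for genes higher in spleen. From mean levels, with 3 counts over all libraries of a tissue as the lowest level used, 718 genes were at least 100-fold higher in liver and 132 at least 100-fold higher in spleen. At 1000-fold or more there were 342 and 7 genes. Without TMM factors the order at 100-fold turned (493 in liver, 613 in spleen), whereas at 1000-fold liver still had more (253 against 24). Of the 342 genes, 86 were at or under the lowest level in spleen, so that their folds are lower bounds. Mates appear to be counted singly, and with 3 read pairs (6 counts) as the lowest level the numbers were 672 and 100 at 100-fold and 327 and 5 at 1000-fold. The level of 3 counts was 0.0076 CPM in liver and 0.0044 CPM in spleen. Folds could thus be followed further towards liver than towards spleen at the same level.

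Classes of level set well above these limits gave the same asymmetry. A level of 0.1 CPM corresponds to 5.02 to 8.64 counts in the livers and 10.8 to 20.2 counts in the spleens. About as many genes reached a mean of 10 CPM in liver (8874) as in spleen (8901). Of these, 264 of the liver genes were under 0.1 CPM in spleen, and 17 of the spleen genes were under 0.1 CPM in liver. With each animal left out in turn the numbers stayed at 263 to 278 and at 14 to 20. With library sizes alone they were 187 and 55. Classes were formed by limits at 0.1, 1, 10, 100 and 1000 CPM, and 20379 genes were at 0.1 CPM or more in at least 1 of the tissues. Of these, 51.7% were in the same class in both tissues, 3252 genes were a single class higher in liver and 4884 a single class higher in spleen. Steps of 3 or more classes were taken by 411 genes towards liver and 20 towards spleen.

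The direction of the differences followed the read level. Among the 8096 tested genes with a mean of the tissues of 10 to 100 CPM, the largest class, 74.7% differed, and 53.5% of these were higher in liver. At 100 to 1000 CPM 85.6% of 1502 genes differed, with 78.3% of them higher in liver. At 1000 CPM and over 95 of 103 genes differed, 88 higher in liver and 7 higher in spleen. Low genes leaned to spleen. At 1 to 10 CPM 37.9% of 4106 calls were higher in liver, and at 0.1 to 1 CPM 27.7% of 2151 calls. The filter on low counts was applied before the factors, on a scale where a gene at the same level has more counts in spleen. Without the filter 32.3% of 558 calls under 0.1 CPM were higher in liver, which is no lower than the 30.0% at 0.1 to 1 CPM, and 37.3% of those at 1 to 10 CPM. With library sizes alone the shares higher in liver were lower in each class from 0.1 CPM up and kept their order, from 8.30% at 0.1 to 1 CPM to 84.2% at 1000 CPM and over. Only the calls were made anew there. The classes stayed on the TMM scale, so that the order is not free of the factors.

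**Figure D2:**
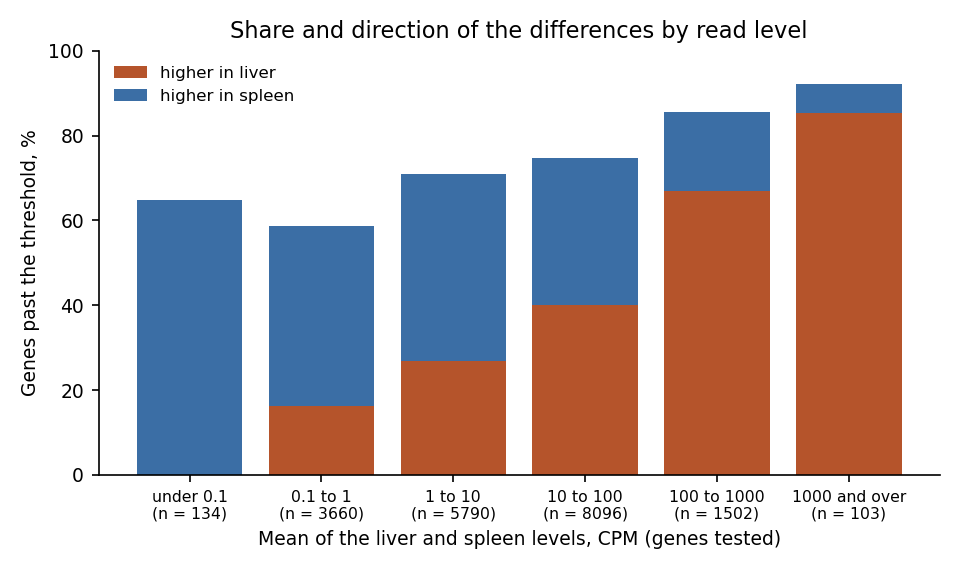
Share of the tested genes that passed the threshold, in %, split into higher in liver and higher in spleen, by the mean of the liver and spleen levels in CPM, with the number of genes tested in each class. From 0.1 to 1 CPM up, the part higher in liver grows to 88 of 103 genes at 1000 CPM and over. The 134 genes under 0.1 CPM passed the filter mainly through spleen, so that their direction is set by it.

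With the TMM factors taken as given, a minority of genes had levels that the data bound to be close. For 5514 genes (28.6% of those tested) no difference passed the threshold, which alone does not show equal levels. The 95% interval of the fold lay within 2-fold either way for 3035 of them (55.0%), and their median level was 16.8 CPM. For the other 2479 the interval reached past 2-fold, and their median level was 0.728 CPM, so that a change of this size is not excluded for them. Another 1480 genes passed the threshold with an interval wholly within 2-fold. The median standard error of the log2 difference was 0.24 over all tested genes.

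Liver reads were concentrated on few genes. To hold 50% of the counts of a library, 78 to 124 genes sufficed in the livers (median 110.5, n = 6). In the spleens 1080 genes were needed in F6849, 1210 in F9150, 1147 in M4046, 1033 in M4075 and 1106 in M4091. No liver came near any spleen. Within an animal the number, liver minus spleen, was -1115 to -920. Genes at 1000 CPM or more held 54.2% to 56.8% of the counts in the livers, against 12.8%, 10.04%, 11.5%, 13.7% and 10.7% in the spleens of F6849, F9150, M4046, M4075 and M4091. For 90% of the counts 3427 ± 80.1 genes (SD, n = 6) were needed in liver and 6613 ± 98.9 (SD, n = 5) in spleen. The number of genes at 1 CPM or more differed far less, with 14014 to 14280 in liver and 14550 to 14756 in spleen. Within animals, liver minus spleen was -601 to -451. With the TMM factors, a limit in CPM stands for a larger share of the total counts of a library in spleen than in liver. The gaps at 1000 CPM and at 1 CPM thus depend on the factors, and they were not computed with library sizes alone. The numbers of genes for 50% and 90% of the counts do not use the factors. Each of these 4 measures had the same direction in all 5 animals, and a two-sided exact test over the 32 sign changes gave p = 0.062, the smallest that 5 animals allow (adjusted p = 0.0781 over 5 measures). Between the 6 livers and 5 spleens, leaving the pairing aside, an exact permutation test gave p = 0.00216 for each of the 4 (adjusted 0.00271). The permutation test treats liver and spleen of the same animal as independent, so that its smaller p does not replace that of the paired test.

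**Figure D3:**
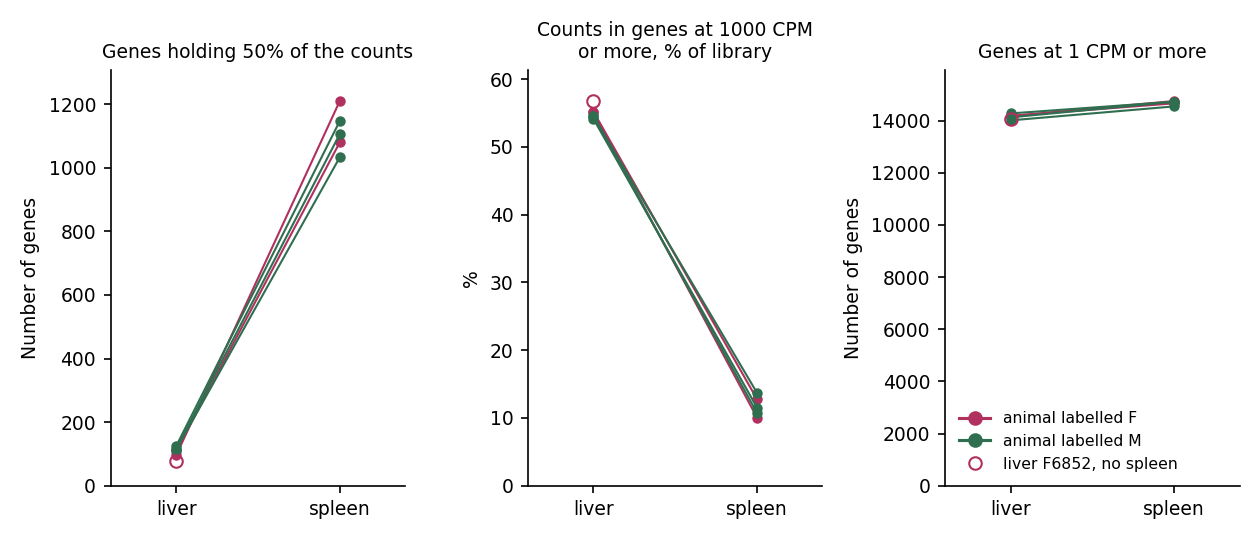
Number of genes that hold 50% of the counts (left), share of the counts in genes at 1000 CPM or more in % (middle) and number of genes at 1 CPM or more (right) per library, with a line between liver and spleen of an animal and an open circle for liver F6852. The left and middle panels show wide gaps (78 to 124 against 1033 to 1210 genes), whereas the numbers of genes at 1 CPM or more are within a few percent of each other.

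Most of the genes with the most reads in liver were low in spleen, whereas most of those of spleen were well read in liver. These lists were chosen by level and are given as a description. The 10 genes with the highest mean level in liver held 16.8% to 27.3% of the counts of the livers and 0.00869% to 0.0179% of those of the spleens. The 10 highest of spleen held 6.64% to 10.2% of the counts of the spleens and 1.14% to 2.05% of those of the livers. The 100 highest genes of liver held 49.0% ± 1.64 (SD, n = 6) of the liver counts and 2.99% ± 0.387 (SD, n = 5) of the spleen counts. Of these, 99 passed the threshold as higher in liver, against 33.6% of all tested genes. In spleen 59 of them were under 1 CPM and 15 at 100 CPM or more. The 100 highest genes of spleen held 19.7% ± 1.16 (SD, n = 5) of the spleen counts and 4.55% ± 0.724 (SD, n = 6) of the liver counts. In liver 1 of them was under 1 CPM and 84 at 100 CPM or more. Of these genes 55 passed as higher in spleen, against 37.8% of all tested genes, 6 as higher in liver and 39 passed in neither direction. Their median level was 425 CPM in liver, whereas that of the 100 liver genes was 0.454 CPM in spleen. The lists of 100 shared 5 genes.

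Genes with reads in every library of a tissue and none in the other were found in both directions at equal numbers but unequal levels. At least 10 counts in all 6 livers and 0 counts in all 5 spleens were found for 96 genes, and the reverse for 99 genes. The liver genes had a median of 3.90 CPM and reached 373 CPM, and 35 of them were at 10 CPM or more. The spleen genes had a median of 0.371 CPM, and 16 of them reached 1 CPM. The median lower bound of the fold was 880 for the liver genes and 48.7 for the spleen genes with 3 counts as the limit, and 440.1 and 24.3 with 3 read pairs. These 96 genes held 0.139% to 0.216% of the counts of the livers, and the 99 genes 0.0106% to 0.0164% of those of the spleens. The near equality of the numbers did not hold at other depths. With all libraries thinned to the smallest effective size, 116 genes were found for liver and 24 for spleen. Without animal F6849, whose liver and spleen libraries are each the deepest of their tissue, the numbers were 117 and 152. Levels also varied between animals, and 20 of the liver genes and 22 of the spleen genes differed by 10-fold or more between the highest and the lowest library of the tissue. The paired fit tested 93 of the 96 and 90 of the 99 genes, which by their choice had to differ, and all of these passed the threshold.

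The genes given by identifier are the one furthest apart in mean CPM in each direction and the highest one without reads in the other tissue. The former were chosen among genes that had passed the threshold, and the latter for having 0 counts in the other tissue. That they passed the test for a liver-spleen difference was thus set by the choice, and those adjusted p-values are given as a description. Monax4B019954 was the most read gene of liver, at 66934 to 249858 CPM with a median of 122758 CPM (n = 6). In spleen it was at 0.564 CPM in F6849, 2.43 in F9150, 1.05 in M4046, 2.60 in M4075 and 1.55 in M4091. The tissues are far from overlapping, and the 3 female livers (140928 to 249858 CPM) were above the 3 male livers (66934 to 104589 CPM). That order was not tested. The liver-spleen difference of this gene did not pass for a dependence on sex (adjusted p = 0.434, edgeR's quasi-likelihood test). The log2 fold change was 16.25 (standard error 0.96), which passed edgeR's quasi-likelihood test with an adjusted p of 8.44e-06. The within-animal log2 differences ran from 14.64 to 17.88. Its counts in the 9 libraries of other tissues reached at most 2067, in thymus.

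Monax4B031302 was at 201 to 602 CPM in the livers (median 313 CPM, n = 6) and had 0 counts in all 5 spleens. Female and male livers overlapped. With 3 counts over all spleens as the limit, liver was at least 84194-fold higher, or at least 42097-fold with 3 read pairs (6 counts) as the limit (adjusted p = 8.26e-05, edgeR's quasi-likelihood test). In other tissues it had at most 14 counts, in the pancreas library.

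Monax4B009745 was the gene furthest apart towards spleen. It was at 19043 CPM in spleen F6849, 4341 in F9150, 11958 in M4046, 11084 in M4075 and 4846 in M4091. The livers had 405 CPM in F6849, 92.1 in F9150, 259 in M4046, 472 in M4075, 125 in M4091 and 158 in F6852. The tissues did not overlap, and the animals with the 3 highest spleens were those with the 3 highest livers. The within-animal log2 differences were -5.56, -5.56, -5.53, -4.55 and -5.28 in the same order of animals, with an SD of 0.43 against 0.91 between spleens and 1.03 between the paired livers. The log2 fold change was -5.25 (standard error 0.33), which passed edgeR's quasi-likelihood test with an adjusted p of 1.03e-05.

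Monax4B026245 was at 11.6 CPM in spleen F6849, 15.0 in F9150, 13.1 in M4046, 13.2 in M4075 and 9.82 in M4091, with 0 counts in all 6 livers. It varied little between spleens, and its level was at least 1644-fold higher than in liver, or at least 822-fold with 3 read pairs as the limit (adjusted p = 0.000274, edgeR's quasi-likelihood test). The highest count of it in the series was in heart (11598 counts).

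**Figure D4:**
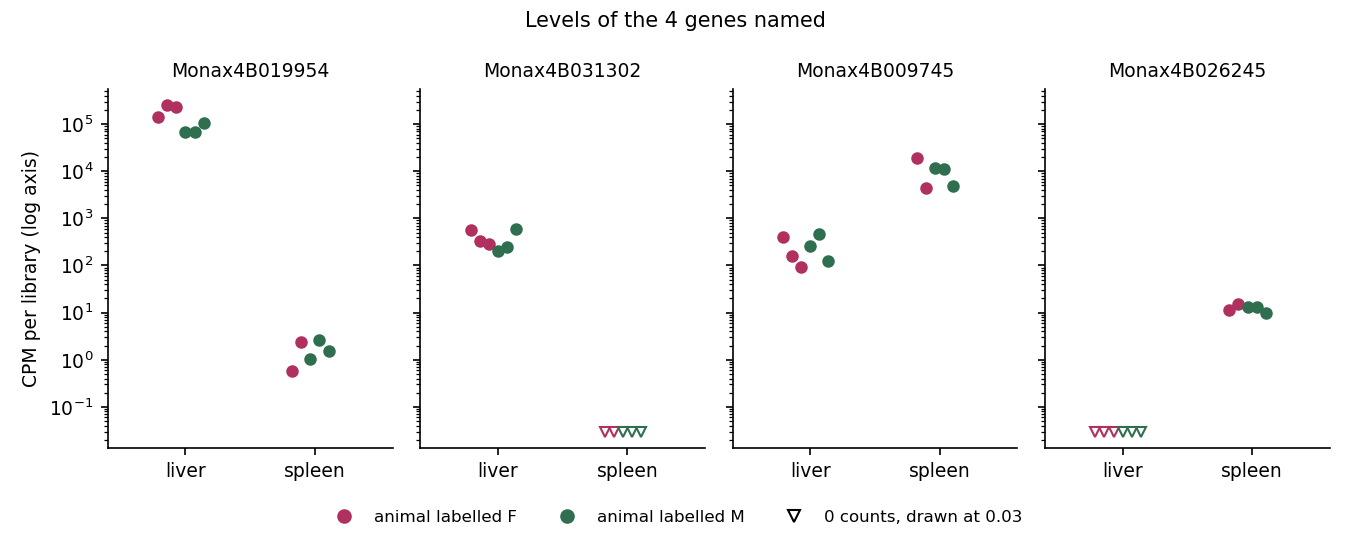
Level of the 4 named genes in each liver and spleen library, in CPM on a log axis, coloured by the letter of the animal, with triangles for 0 counts drawn at 0.03. Liver and spleen are apart for each gene, and the levels of Monax4B009745 spread over 4341 to 19043 CPM in the spleens.

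The libraries of the other tissues, which the comparison did not use, show on which side the difference stands out. Levels were set against the midpoint, on the log2 scale with 0.1 CPM added, between liver and spleen for the genes at least 8-fold apart by the fit. Of the 1880 such genes higher in liver, 44.8% ± 2.16 (SD, n = 5) were nearer to liver than to spleen in kidney. The single libraries gave 32.6% for pancreas, 28.4% for lung, 26.3% for thymus and 21.5% for heart. Of the 2295 genes higher in spleen, 37.7% ± 4.12 (SD, n = 5) were nearer to spleen in kidney. The single libraries gave 54.4% for lung, 37.3% for heart, 32.2% for thymus and 31.1% for pancreas. Lung thus had the highest share on the spleen side among the spleen genes, and kidney the highest share on the liver side among the liver genes. The other set of genes gave another order in each case. Among the liver genes, heart and thymus were on the liver side less often than lung. Among the spleen genes, pancreas and thymus were on the spleen side less often than kidney. The kidney values for liver genes (42.3% to 47.3%) and spleen genes (32.8% to 42.8%) came close to each other in M4075, at 43.1% and 42.8%. Of the liver genes 598 (31.8%) were on the spleen side in all 5 other tissues, and of the spleen genes 694 (30.2%) were on the liver side in all 5. In all 5 other tissues 81 of the liver genes (4.31%) and 287 of the spleen genes (12.5%) were on the side of the tissue where they were high. With median-ratio factors these numbers were 83 and 291. Heart, lung, pancreas and thymus had 1 library each, so that these values have no replicate.

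**Figure D5:**
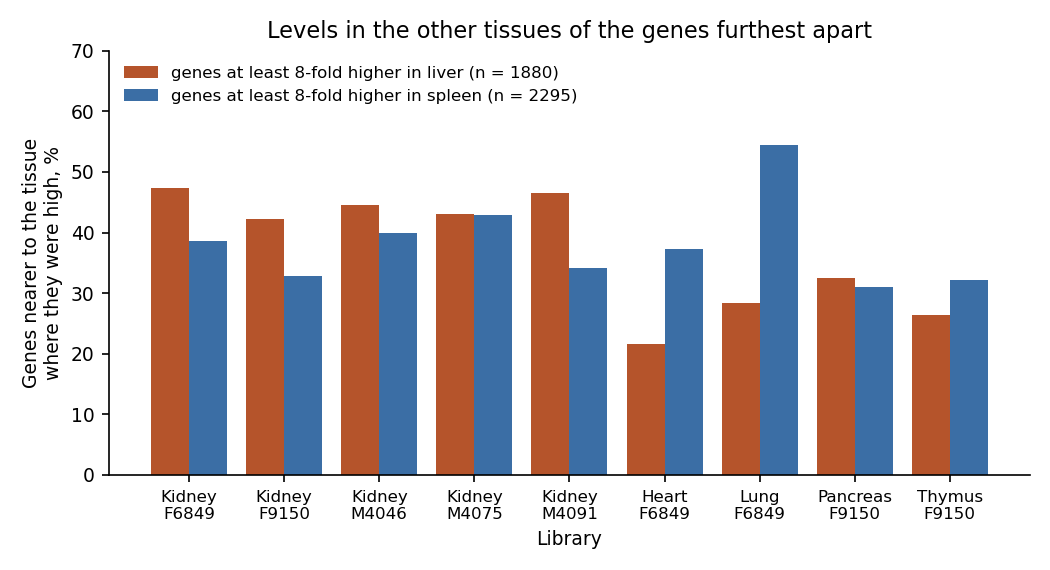
Share of the genes at least 8-fold higher in liver (1880 genes) or in spleen (2295 genes) whose level in each of the 9 other libraries was nearer to the tissue where they were high, in %. Lung has the highest value for spleen genes (54.4%) and the kidneys have the highest for liver genes (42.3% to 47.3%).

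Many of the genes without reads in the other tissue were read elsewhere. Kidney had 5 libraries and the other tissues 1, and the depths differ, so that the numbers are given side by side without an order. Of the 96 liver genes, 24 had at least 10 counts in all 5 kidneys, 23 in pancreas, 20 in lung, 11 in thymus and 8 in heart. In none of the 9 other libraries were reads found for 14 of them. Of the 99 spleen genes, 45 had at least 10 counts in lung, 29 in heart, 25 in pancreas, 22 in all 5 kidneys and 19 in thymus. A level above their own tissue was reached in another tissue by 12 of the liver genes and 51 of the spleen genes.

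The difference between the tissues was much the same in each animal. The genes called higher in liver had a median within-animal log2 difference of 1.49 in F6849, 1.49 in F9150, 1.76 in M4046, 1.55 in M4075 and 1.74 in M4091. Those called higher in spleen had -2.06, -1.83, -1.99, -1.78 and -1.84. Of the genes higher in liver 95.4%, and of those higher in spleen 96.8%, had the same direction in all 5 animals, values that are part of what the test used. Over all tested genes every paired liver was above every paired spleen for 5304 (27.5%) and below for 6037 (31.3%). Liver F6852 did not enter the fit. Its level was above all 5 spleens for 93.4% of the 6480 genes called higher in liver, against 36.8% of all tested genes. It was below all 5 spleens for 94.1% of the 7291 genes called higher in spleen, against 43.4% of all tested genes. The 5 spleens did enter the fit and helped to choose these genes, so that both shares are raised in part by that choice.

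Across the 19285 genes, the within-animal differences of a pair of animals had a Pearson r of 0.895 to 0.949. The 4 pairs of animals of the same sex had 0.940 to 0.949 and the 6 pairs of a female and a male 0.895 to 0.927, so that the ranges do not overlap. Genes are not independent replicates, and these values are a description.

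Animals varied about as much in liver as in spleen. The median SD of log2 CPM over the 5 paired animals was 0.37 in liver and 0.35 in spleen, and 54.1% of the tested genes had the larger SD in liver. With animals left out in turn this share ran from 48.6% to 58.1%. A library differed from the mean of its tissue by a median of 0.22 to 0.29 on the log2 scale in liver and by 0.19 to 0.29 in spleen. The difference was 0.01 on average, liver being higher in 3 of 5 animals (exact sign-change test, p = 0.688). The most read genes were an exception. Among the 103 genes at 1000 CPM and over the median SD was 0.37 in liver and 0.80 in spleen, and 21.4% had the larger SD in liver. These were mostly liver genes with few reads in spleen. An SD of at least 1 was found for 1990 genes in liver and 1863 in spleen, of which 666 were the same genes. For 292 of these 666 (43.8%) the within-animal difference varied less than either tissue. This share was not computed over all tested genes, so that it has no background to be read against. Over all tested genes the median SD of the difference was 0.50, against 0.57 for the same SDs without pairing.

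In the main fit few genes passed the threshold for a dependence of the difference on sex, and those did so narrowly. With the animal as a block, the liver-spleen difference depended on the letter F or M for 139 genes (0.721% of those tested, edgeR's quasi-likelihood test). For 116 of them the difference was shifted towards liver in males and for 23 in females. Their adjusted p-values were close to the threshold, from 0.0336 upwards with a median of 0.0447. The median size of the dependence was 2.29 on the log2 scale. Males and females differed by a median of 1.00 in liver and of 1.47 in spleen among these genes, and in opposite directions in the 2 tissues for 112 of them. The genes were chosen for a male-female difference that is unlike in the 2 tissues. Large and opposite values are favoured by that choice, and these numbers are a description. Leaving out any animal left 0 to 4 genes (0 without F6849, M4046 or M4075, 1 without M4091 and 4 without F9150). These fits have fewer residual degrees of freedom, and without F6849 or F9150 a single female is assumed to vary like the males, so that the low counts do not show that the dependence is absent. DESeq2 gave 1610 genes, among them all 139.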

How the data were processed

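Per the study's methods, the authors mapped reads with the gem-tools rna-mapper 1.6.1 and quantified the Monax4B annotation with gemtools 1.7.1; the deposited values are unnormalized read counts per gene. Of the counts above 0, 85.1% to 86.2% in a library were even, as where both mates are counted singly. Per the labels, libraries were made with a TruSeq RNA kit and sequenced in pairs. The kit selects polyadenylated RNA and does not mark strand, so that reads of overlapping genes, as of near-identical copies, cannot be told apart.

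Every column belongs to a sample. The fits used edgeR 4.0.16 under R 4.3.3 (filterByExpr, TMM factors, robust quasi-likelihood fit, glmTreat for a change of over 2-fold) on the 10 libraries of the 5 animals with both tissues, with the animal as a block. The study's methods name TMM and edgeR's robust approach and no block. The pairing comes from the animal labels and was checked on deviations from the tissue means: liver and spleen of the same animal had correlations of 0.147 to 0.255 over 19285 genes, against -0.124 to 0.0903 between different animals. Adjusted p-values are Benjamini-Hochberg values over all genes tested, and intervals are at 95%. Levels used TMM factors over 11 libraries, or over 20 for the other tissues, and log2 CPM had a prior count of 2. Bounds used 3 counts over a group, or 3 read pairs as an alternative, and cover counting error only. No libraries of a tissue were so alike as to be duplicates (chi-square per degree of freedom at least 135 over 25 pairs). The test was checked on simulated counts in which both tissues had the same profile apart from few changed genes. That check does not cover data where most genes differ and the TMM factors lie far apart.

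The comparison, the limits and the rule for named genes (the largest difference in mean CPM among called genes of the same direction in all animals, and the highest level with at least 10 counts throughout and 0 in the other tissue) were chosen with earlier results of these data known. The alternatives were DESeq2 1.42.0, robust observation weights, median-ratio (RLE) factors, library sizes alone, no filter, a minimum of 1 CPM in 5 libraries, counts halved, a false discovery rate of 0.01, no block, all 16 libraries of liver, kidney and spleen, lanes as a block, other limits, thinned libraries, and each animal left out. A mean of 1 CPM against under 0.1 CPM, the folds from mean levels, the limit of 3 read pairs, the levels in other tissues and direction by class under other settings were added after seeing the data. Plots come from matplotlib 3.10.9 under Python 3.11.15.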

Additional observations from a re-analysis of the deposited data

Results flagged for a closer look

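Among 28 sets of 5 or 6 values, 3 had a value far from the others by its gap over the whole range, and about 1 in 20 is what chance gives. Spleen F6849 had 123267969 counts in all, and the remaining spleens had 59487004 to 69512327. In the same library the genes with reads in all spleens and none in liver held 0.0106% of the counts, against 0.0150% to 0.0164% in the other spleens. The within-animal log2 difference of Monax4B009745 was -4.55 in M4075, against -5.56 to -5.28 in the other animals.

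The difference between liver and spleen depended on the sex given by the animal label for 139 genes by a test of the interaction. It rests on 2 females and 3 males.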

How the results depend on the processing

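The number of genes that differ between liver and spleen ran from 11255 to 16687 over 11 alternatives and from 12525 to 13187 with each animal left out. Without the replicate block it was 14322 for 6 livers and 5 spleens and 15357 in the fit of 16 libraries, and 13397 and 13497 of the 13771 genes were called there in the same direction. Library sizes alone turned 2022 of the calls from liver to spleen; in no other alternative was any of the 13771 genes called in the opposite direction. The genes differing by more than 2-fold were 6630 to 9011 in 8 alternatives, 13060 with library sizes alone, and 7487 to 7999 with an animal left out. The genes whose difference depends on sex were 68 with library sizes alone, 214 without the filter, 248 with counts halved, 1610 with DESeq2 and 0 to 4 with an animal left out, where 2130 to 3123 genes had an unadjusted p under 0.05. The cause was not tested.

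Genes with reads in only liver or only spleen numbered 180 and 288 at up to 2 counts in the other tissue, 46 and 5 at 100 counts or more, 55 and 3 at 1 CPM or more, and 493 and 323 by means of 1 CPM against under 0.1 CPM. Thinning gave 24 for spleen. With an animal left out they were 103 to 118 and 111 to 152. With library sizes alone 79 genes were 3 or more classes higher in spleen, 55 were at 10 CPM in spleen and under 0.1 in liver, and 613 and 24 were at least 100-fold and 1000-fold higher in spleen. With an animal left out, 18 to 24 genes were 3 or more classes higher in spleen.

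In the test between libraries without pairing, liver minus spleen was -1009.7 genes for 50% of the counts, -3186.7 for 90%, -541.7 at 1 CPM or more and 43.3 percentage points in genes at 1000 CPM or more. The deviation from the tissue mean, liver minus spleen, ran from -0.0083 to 0.035 with an animal left out and changed sign without F9150. The 4 named genes kept their direction, with an adjusted p of at most 0.000902 in edgeR's quasi-likelihood test and DESeq2.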
